A study of Mus musculus with 14 samples.

Results

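Messenger RNA of 8 genes that start or damp signalling by the interleukin-6 family of cytokines was followed in kidney RNA from C57BL/6J mice, all male. The genes were taken by symbol from the deposited count table, and all 8 of 8 were found among its 24421 genes and had enough counts to be tested. They are the inhibitors Socs1, Socs2, Socs3 and Cish and the receptor subunits Il6st, Il6ra, Osmr and Lifr. The 14 libraries form 5 groups: 3 from mice given vehicle, 3 from mice 4 h and 3 from mice 24 h after Dps, and 3 from mice 4 h and 2 from mice 24 h after MnDps. Each material was given intravenously at 18 mg/kg, and the series title calls the material protein nanocages that target the proximal tubule through glomerular filtration. Dps is commonly the name of a bacterial cage protein of the ferritin type, but the labels spell out neither name and do not say how the materials differ. All mice were of one strain and one sex, and the labels give no age, no time point for the vehicle group and no statement that libraries come from separate animals. P-values therefore measure the spread between these libraries, which may be technical in part.

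Cytokines of the interleukin-6 family act through receptors that share the signalling chain gp130, the product of Il6st. Il6ra binds interleukin-6 itself, Lifr pairs with gp130 for leukemia inhibitory factor, and Osmr pairs with it for oncostatin M. The receptors activate JAK kinases and STAT transcription factors, STAT3 above all, and STATs switch on SOCS genes whose proteins then block the same receptors and kinases. Socs3 is the inhibitor best known for binding gp130, Socs1 for shutting down interferon and JAK signalling, and Socs2 and Cish for limiting growth hormone and other signals that run through STAT5.

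Total counts ran from 15097093 to 42074942 per library, with 3 libraries above 30000000 (vehicle replicate 3, and the replicates 1 and 2 taken 4 h after Dps) and the others at or below 26490966. Levels are given as CPM, counts scaled to a common library size after correction for composition. Of the kidney markers, the 8 proximal tubule genes summed to between 14500 and 19400 CPM and the 4 podocyte genes to between 243 and 318 CPM in every library, so the labelled tissue was present. Log2 fold changes are ± SE. Adjusted p-values come from the quasi-likelihood test of edgeR, adjusted after Benjamini and Hochberg over 14854 genes, and those under 0.05 count as calls. In whole tissue, fewer cells of a type and less RNA per cell cannot be told apart.

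In vehicle kidneys the members spanned a wide range when counts were divided by the length of the longest transcript. Il6st and Lifr stood at 13.2 ± 1.38 and 10.2 ± 0.476 CPM per kb (SD, n = 3), and Cish at 10.8 ± 5.38 overlapped both. Socs2 followed at 3.89 ± 0.562 and Osmr at 2.14 ± 0.403 CPM per kb. Socs3 (0.937 ± 0.0843), Il6ra (0.364 ± 0.054) and Socs1 (0.168 ± 0.0233) lay lower, with no overlap between neighbours from Lifr down to Socs1. The signalling chain gp130 was thus counted far more often per length than the interleukin-6 binding chain. Socs1 rested on only 8 to 21 reads per vehicle library.

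**Figure D1:**
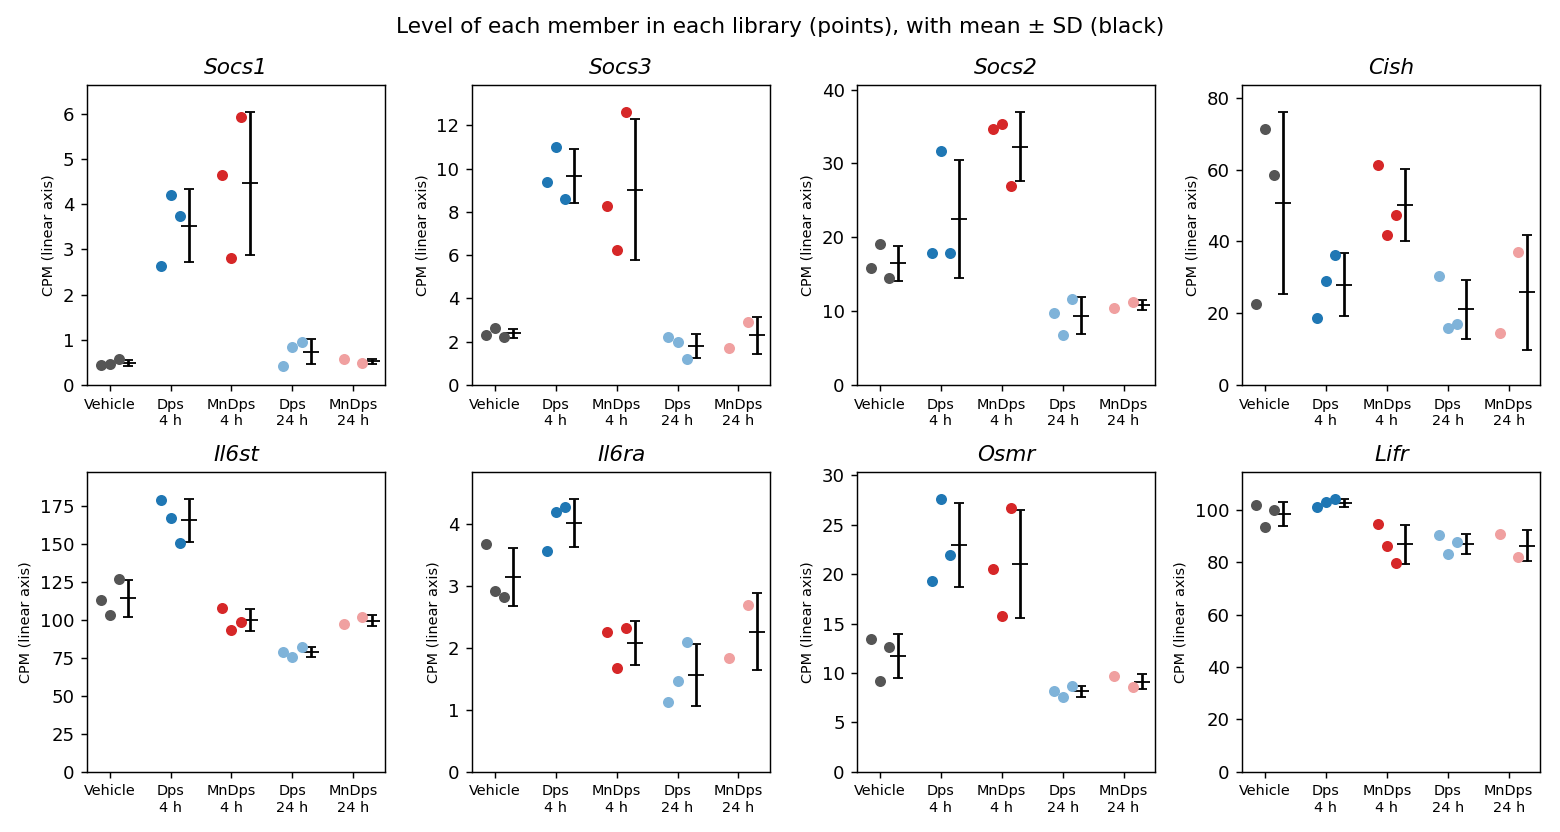
CPM of the 8 members (vertical axes, linear and starting at 0) in each library (points) of the 5 groups, with the mean ± SD in black (n = 3, and n = 2 for MnDps at 24 h). Socs1, Socs3 and Osmr stand above vehicle in all 6 libraries taken at 4 h, Il6st is above it after Dps at 4 h only, and Cish varies from 22.5 to 71.3 CPM within the vehicle group.

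Libraries taken 4 h after Dps were set against vehicle for the early response. The inhibitors Socs1 and Socs3 and the receptor subunits Osmr and Il6st rose, no member fell, and Socs2, Cish, Il6ra and Lifr were not called. These 4 of 8 members stand beside 14.6% of all tested genes called in this comparison (8.33% higher and 6.27% lower), and the members' median log2 fold change was 0.50 against −0.02 for all tested genes. The 4 called members, and no other member, had groups that did not overlap, which held for 34.7% of all tested genes. After MnDps at 4 h, Socs1, Socs3, Socs2 and Osmr rose and Il6ra fell. Those 5 of 8 members compare with 45.6% of all genes called (22.9% higher and 22.7% lower), and the members' median was 0.40 against 0.00. Both comparisons use the same vehicle libraries.

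Socs1 showed the largest change of the 8 in both comparisons at 4 h. Its levels were 0.439, 0.459 and 0.565 CPM in vehicle, 2.64, 4.20 and 3.74 after Dps, and 4.65, 2.80 and 5.93 after MnDps. The lowest library at 4 h was thus well above the highest vehicle library. The log2 fold change was 2.80 ± 0.34 after Dps (adjusted p = 1.87e-05) and 3.13 ± 0.34 after MnDps (adjusted p = 4.08e-06).

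Socs3, the inhibitor of gp130 signalling, stood at 2.31, 2.64 and 2.23 CPM in vehicle. It reached 9.40, 11 and 8.57 CPM after Dps and 8.25, 6.22 and 12.6 CPM after MnDps, again with no overlap. The log2 fold changes were 2.03 ± 0.26 (adjusted p = 3.69e-05) and 1.92 ± 0.26 (adjusted p = 4.74e-05). In every refit that left out 1 library of the groups compared, the Socs1 and Socs3 calls at 4 h held.

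Because STATs and interferon-driven factors act at short DNA motifs, the RefSeq promoter windows of the members (250 bases before to 50 after the start, build GRCm38.p6) were searched on both strands for the palindrome TTCNNNGAA, a core that STATs bind, and for GAAA followed by any 2 bases and GAAA, a core that interferon regulatory factors bind. The motifs were picked with the expression values known, the second after the promoters had been seen. Windows were found for 7 of the 8 members, Socs2 being the exception. The first motif is in 7.08% of the windows of tested genes and the second in 3.18%, so a single match is a description and not a site. All stretches with matches are shown, and they came from Socs1, Socs3 and Cish. They read 5′ to 3′ on the gene's strand, with matches in capitals:

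Socs1, chr16:10785579-10785644, minus strand: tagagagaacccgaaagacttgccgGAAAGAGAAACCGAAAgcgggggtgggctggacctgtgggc

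Socs3, chr11:117969487-117969545, minus strand: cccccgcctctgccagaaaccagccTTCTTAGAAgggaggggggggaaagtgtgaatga

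Cish, chr9:107296654-107296683, plus strand: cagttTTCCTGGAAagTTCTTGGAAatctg

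Socs1 held 2 overlapping matches of the second motif, beginning 83 and 77 bases before the start. Socs3 held 1 match of TTCNNNGAA, which begins 154 bases before its start. Cish held 2 matches of TTCNNNGAA, at bases 1 and 12 after its start. The windows of Il6st, Il6ra, Osmr and Lifr held neither motif, which says only that these letters are absent there. All starts here are those of RefSeq. For Socs3, Cish, Osmr and Lifr the windows lie inside the GENCODE gene coordinates given below, so the outer GENCODE start was not searched.

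Of the inhibitors tied to STAT5, Socs2 rose after MnDps at 4 h and Cish was not called at 4 h after either material. Socs2 stood at 15.8, 19.1 and 14.5 CPM in vehicle and at 34.6, 35.3 and 26.9 CPM after MnDps at 4 h, a rise of 0.98 ± 0.23 (adjusted p = 0.00395). After Dps at 4 h it read 17.9, 31.7 and 17.9 CPM, where replicate 2 alone was clearly above vehicle, and the difference of 0.47 ± 0.23 was not called. Cish read 22.5, 71.3 and 58.4 CPM in vehicle, a 3.17-fold spread within the group. With 18.8, 29.0 and 36.1 CPM after Dps and 61.4, 41.7 and 47.4 CPM after MnDps, neither comparison was called (−0.88 ± 0.47 and −0.02 ± 0.46). The 95% intervals, −1.93 to 0.18 and −1.06 to 1.02, allow changes of either sign. Cish exons lie under Gm17040 and Gm17041 on the opposite strand, and no source used here states whether counting used the strand, so reads of these genes cannot be told apart.

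Osmr, the oncostatin M receptor subunit, rose after both materials at 4 h. It went from 13.4, 9.23 and 12.6 CPM in vehicle to 19.3, 27.6 and 21.9 after Dps and to 20.5, 15.8 and 26.7 after MnDps. The treated libraries were all higher than the vehicle libraries, by 0.96 ± 0.18 (adjusted p = 0.00183) and 0.83 ± 0.18 (adjusted p = 0.00198). Replicate 3 of MnDps at 4 h held the highest level of its group for Socs1, Socs3 and Osmr alike, and replicate 2 the lowest.

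Il6st, the shared chain gp130, rose after Dps at 4 h. It read 113, 103 and 127 CPM in vehicle and 179, 167 and 151 CPM after Dps at 4 h, with no overlap and a log2 fold change of 0.53 ± 0.09 (adjusted p = 0.000484). After MnDps at 4 h it read 108, 93.3 and 98.7 CPM, and −0.20 ± 0.09 was not called (adjusted p = 0.0788). Without replicate 2 of vehicle (−0.27) or replicate 1 of MnDps at 4 h (−0.26) this difference was called as a fall.

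Il6ra, which captures interleukin-6, is a rare transcript in these kidneys, with 21 to 174 reads per library. It stood at 3.68, 2.92 and 2.83 CPM in vehicle and 3.57, 4.20 and 4.28 CPM after Dps at 4 h, a difference that was not called (0.36 ± 0.22). After MnDps at 4 h it fell to 2.26, 1.67 and 2.32 CPM, below every vehicle library (−0.59 ± 0.23, adjusted p = 0.0481). This call lies at the threshold and was lost when any 1 of the 6 libraries was left out (−0.69 to −0.45), with no count filter (−0.59), with only those groups fitted (−0.59) and with a term for the libraries above 30000000 counts (−0.66). Il6ra exons also lie under the antisense gene Gm42809.

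Lifr, the receptor chain for leukemia inhibitory factor, was not called at 4 h after either material. It read 102, 93.4 and 100 CPM in vehicle, 101, 103 and 104 after Dps at 4 h, and 94.5, 86.1 and 79.9 after MnDps at 4 h. The differences of 0.06 ± 0.07 and −0.18 ± 0.08 were not called. Without replicate 2 of vehicle (−0.22) or replicate 1 of MnDps at 4 h (−0.25) the second was called.

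**Figure D2:**
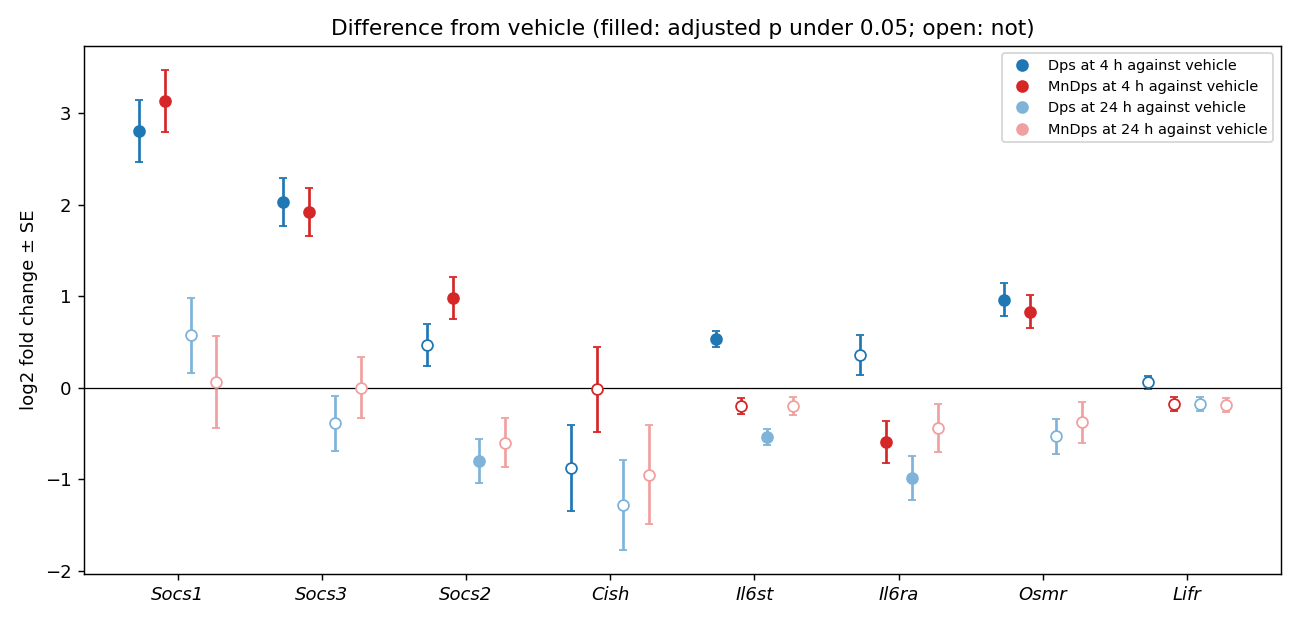
Log2 fold change ± SE against vehicle (vertical axis) of the 8 members (horizontal axis) in the 4 treated groups; filled points passed the test at an adjusted p under 0.05. Socs1 and Socs3 reach between 1.92 and 3.13 at 4 h and lie between −0.39 and 0.57 at 24 h, when the filled points that remain are falls of Socs2, Il6st and Il6ra after Dps.

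Transcript length moved with several of these values. Across 14328 genes, which are not independent, log2 fold changes correlated with transcript length at a Spearman's rho of −0.47 for MnDps at 4 h, −0.51 for Dps at 24 h and 0.17 for Dps at 4 h against vehicle. Il6st, Il6ra and Lifr have the longest transcripts of the members, at 8.68, 8.64 and 9.65 kb, while those of Socs1 and Socs3 measure 2.91 and 2.55 kb. The 589 tested genes at least as long as Il6ra had a median log2 fold change of −0.43 for MnDps at 4 h. For MnDps against Dps at 4 h rho was −0.63, and these long genes had a median of −0.53 (quartiles −0.71 to −0.32). For the change of that difference from 4 h to 24 h rho was 0.59 and their median 0.63 (quartiles 0.32 to 0.95). A fit that carried each library's trend with length and GC content as an offset therefore accompanies the receptor values.

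With this offset the differences of MnDps at 4 h from vehicle were 0.25 ± 0.07 for Il6st and 0.31 ± 0.07 for Lifr, both now called as rises. Il6ra was no longer called (−0.18 ± 0.23). The direction of Il6st and Lifr after MnDps at 4 h thus turned with the scaling. Il6st after Dps at 4 h (0.52 ± 0.07) and the rises of Socs1, Socs3, Socs2 and Osmr after MnDps (3.02 ± 0.33, 1.76 ± 0.25, 1.09 ± 0.24 and 1.12 ± 0.20) passed with the offset too.

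**Figure D3:**
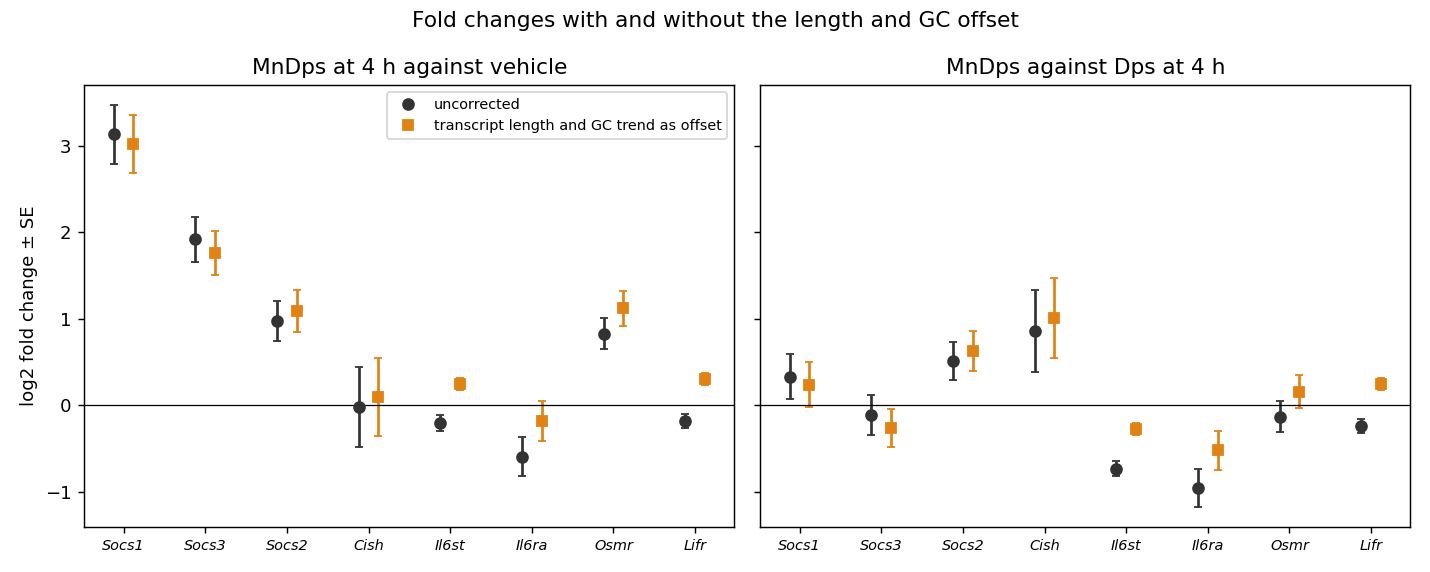
Log2 fold change ± SE (vertical axis) of each member (horizontal axis) without (circles) and with (squares) the offset for transcript length and GC content, for MnDps at 4 h against vehicle (left) and against Dps at 4 h (right). Socs1, Socs3, Socs2 and Osmr stay above vehicle with the offset, whereas Lifr passes from −0.18 to 0.31 on the left and from −0.24 to 0.25 on the right.

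MnDps was compared with Dps at 4 h to see where the materials differed. Il6st, Il6ra and Lifr were lower after MnDps, and the 4 inhibitors and Osmr were not called. These 3 of 8 members stand beside 41.5% of all genes called (20.8% higher and 20.7% lower), close to the share among the members. The difference was −0.73 ± 0.09 for Il6st (adjusted p = 7.12e-05) and −0.95 ± 0.22 for Il6ra (adjusted p = 0.00315). With the offset for length and GC, Il6st remained lower at −0.27 ± 0.07, Il6ra was not called at −0.52 ± 0.22, and Lifr turned from −0.24 ± 0.08 (adjusted p = 0.0171) to 0.25 ± 0.07, called as higher. The Lifr call was also lost with a term for the 3 libraries above 30000000 counts (−0.24).

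For the inhibitors and Osmr the intervals of the difference between the materials at 4 h were wide. The 95% interval ran from −0.22 to 0.89 for Socs1, from −0.60 to 0.38 for Socs3 and from −0.50 to 0.24 for Osmr. Socs2 was 0.51 ± 0.22 higher after MnDps without passing (adjusted p = 0.0827, interval 0.03 to 0.99). It passed at 0.84 without replicate 2 of Dps at 4 h, the library that read 31.7 CPM. Cish was 0.86 ± 0.47 higher after MnDps and not called (adjusted p = 0.178, interval −0.20 to 1.91).

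By 24 h after Dps no member was called higher than vehicle. Socs2, Il6st and Il6ra were lower, and Socs1, Socs3, Cish, Osmr and Lifr were not called. The 3 of 8 compare with 20.1% of all genes called (9.64% higher and 10.4% lower), and the members' median was −0.54 against 0.00 for all tested genes. Il6st read 78.7, 75.4 and 82.4 CPM, under every vehicle library (−0.54 ± 0.09, adjusted p = 0.00239). Il6ra read 1.12, 1.47 and 2.10 CPM (−0.99 ± 0.24, adjusted p = 0.0119), and Socs2 9.71, 6.76 and 11.7 CPM (−0.80 ± 0.24, adjusted p = 0.0355).

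These 3 calls at 24 h after Dps changed with the scaling, and those of Socs2 and Il6ra with single libraries. With the offset for length and GC none of the 3 was called, at −0.22 ± 0.07 for Il6st, −0.71 ± 0.24 for Il6ra and −0.68 ± 0.25 for Socs2. Socs2 lost its call without any 1 of the 6 libraries but replicate 3 of Dps at 24 h (−0.91 to −0.61), and Il6ra without replicate 1 (−0.80) or 2 (−0.94) of Dps at 24 h. The Socs2 call was also lost with a term for the libraries above 30000000 counts (−0.77). Osmr, at 8.17, 7.59 and 8.70 CPM, lay under all vehicle libraries without passing (−0.53 ± 0.19, adjusted p = 0.0629), but passed without replicate 2 of vehicle (−0.67). Cish, at 30.4, 15.8 and 17.0 CPM, gave −1.28 ± 0.49 (adjusted p = 0.0914) and passed without replicate 1 of vehicle (−1.63).

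Socs1 and Socs3 were back near vehicle at 24 h. Socs1 read 0.427, 0.833 and 0.956 CPM after Dps and 0.567 and 0.491 CPM after MnDps, from 8 to 20 reads per library. Socs3 read 2.24, 2.01 and 1.19 CPM after Dps and 1.70 and 2.91 CPM after MnDps. Both genes overlapped vehicle in both groups, and the 95% intervals against vehicle ran from −0.31 to 1.44 and −0.99 to 1.11 for Socs1 and from −1.04 to 0.25 and −0.71 to 0.70 for Socs3.

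After MnDps at 24 h, where only 2 libraries were made, 0 of 8 members were called by edgeR, against 13.3% of all genes (4.93% higher and 8.39% lower). At an unadjusted p under 0.05 there were 2, Socs2 and Lifr, beside 30.1% of all genes, and DESeq2 called 0, beside 18.4% of the genes it gave an adjusted p. Socs2, Il6st, Il6ra and Lifr lay below all vehicle libraries, while 45.2% of all tested genes had groups without overlap. Socs2 read 10.4 and 11.3 CPM, at −0.60 ± 0.27 (adjusted p = 0.164). Il6st read 97.1 and 102 CPM (−0.20 ± 0.10), Osmr 9.65 and 8.56 CPM (−0.38 ± 0.22), Il6ra 1.83 and 2.70 CPM (−0.44 ± 0.26), Lifr 90.7 and 82.1 CPM (−0.19 ± 0.08) and Cish 14.5 and 37.1 CPM (−0.95 ± 0.54). MnDps and Dps at 24 h likewise differed in 0 of 8 members by edgeR, against 0.815% of all genes (0.148% higher and 0.666% lower). There 1 member, Il6st, had an unadjusted p under 0.05, beside 16.3% of all genes. DESeq2 called it (0.34, higher after MnDps), beside 4.55% of the genes it gave an adjusted p. In the edgeR fit Il6st was 0.34 ± 0.10 higher after MnDps (adjusted p = 0.11), Il6ra gave 0.55 ± 0.28 (adjusted p = 0.343) and Lifr −0.01.

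The time course was tested directly by setting 24 h against 4 h within each material. After Dps, 7 of 8 members fell, beside 44.6% of all genes called (22% higher and 22.6% lower), and Cish was the exception (−0.40 ± 0.49). The log2 change was −2.42 ± 0.27 for Socs3 (adjusted p = 7.46e-06), −2.23 ± 0.32 for Socs1 (adjusted p = 7.34e-05), −1.49 ± 0.19 for Osmr (adjusted p = 2.79e-05) and −1.34 ± 0.24 for Il6ra (adjusted p = 0.000314). Socs2 (−1.27 ± 0.24), Il6st (−1.07 ± 0.09) and Lifr (−0.24 ± 0.08) fell as well. Lifr lost its call without replicate 2 of Dps at 24 h (−0.20) and with the term for deep libraries (−0.23), and turned to 0.13 with the offset for length and GC.

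After MnDps, 4 of 8 members fell from 4 h to 24 h, beside 21.8% of all genes called (10.1% higher and 11.7% lower). They were Socs1 (−3.07 ± 0.40, adjusted p = 6.86e-05), Socs3 (−1.92 ± 0.31, adjusted p = 0.000428), Socs2 (−1.57 ± 0.27, adjusted p = 0.00156) and Osmr (−1.21 ± 0.22, adjusted p = 0.00119). Il6st (−0.01 ± 0.10), Il6ra (0.15 ± 0.27), Lifr (−0.01 ± 0.08) and Cish (−0.94 ± 0.54) were not called, although Il6st and Lifr passed as falls with the offset (−0.26 ± 0.08 and −0.24 ± 0.08). The difference between the materials itself changed from 4 h to 24 h for 2 of 8 members, beside 29.4% of all genes called (13.7% higher and 15.7% lower): Il6st (1.07 ± 0.13, adjusted p = 0.000303) and Il6ra (1.5 ± 0.36, adjusted p = 0.0055). With the offset Il6st gave 0.48 ± 0.11 and was called, and Il6ra gave 0.91 ± 0.36 and was not, while Lifr turned from 0.23 ± 0.11, not called, to −0.36 ± 0.10, called. The Il6ra call was also lost without replicate 2 of MnDps at 24 h (1.16).

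The ligands of these receptors were scarce in whole kidney but several rose at 4 h. Of 9 listed ligand genes 7 were tested, and 5 rose and 1 fell after Dps at 4 h, beside 8.33% and 6.27% of all genes, with a median log2 fold change of 1.39 against −0.02 for all genes. After MnDps at 4 h 5 rose and none fell, beside 22.9% and 22.7% of all genes, at a median of 1.17 against 0.00. Il6 and Il27, among those that rose after both materials, had almost no vehicle reads and passed the count filter through libraries at 4 h. They could only be called higher, so these counts and medians are partly set by the filter. Il6 had 0 reads in every vehicle library, 11, 16 and 2 reads after Dps at 4 h and 12, 6 and 12 reads after MnDps at 4 h. Set against a floor of 3 counts over the vehicle group, its mean was at least 6.11-fold higher after Dps and at least 10.8-fold higher after MnDps. At these bounds Il6 still lies above Lif, the middle gene, so the unchanged medians do not remove the part set by the filter. Without Il6 and Il27, the tested ligands read 0.29 (Il11), 1.39 (Lif), −0.53 (Ctf1), 0.46 (Clcf1) and 1.67 (Ebi3) after Dps at 4 h. After MnDps at 4 h they read 0.49, 1.17, 0.12, 0.42 and 2.18 in the same order.

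Lif, the ligand of Lifr, rose from 0.501 ± 0.165 to 1.24 ± 0.305 CPM after Dps at 4 h (1.39 ± 0.36, adjusted p = 0.0157) and to 1.08 ± 0.146 CPM after MnDps (1.17 ± 0.38, adjusted p = 0.018). Ebi3, a subunit of interleukin-27, rose by 1.67 ± 0.29 and 2.18 ± 0.29, and Clcf1, a ligand of the ciliary neurotrophic factor receptor, by 0.46 ± 0.15 and 0.42 ± 0.15. Il27, the other subunit, had 1 read in all vehicle libraries together. At 4 h it had 10, 23 and 6 reads after Dps and 2, 4 and 15 after MnDps. It was called higher in both, but could only be called higher after the filter, so the calls add nothing beyond these reads. Ctf1, which encodes cardiotrophin, fell after Dps at 4 h (−0.53 ± 0.16, adjusted p = 0.0343). Osm, the ligand of Osmr, had too few reads to test, with 14 over the vehicle group, 11 after Dps and 3 after MnDps at 4 h. No library held more than 6 reads of it.

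Downstream of the receptors, Stat3 rose from 64.6 ± 1.47 to 125 ± 6.24 CPM after Dps at 4 h (0.96 ± 0.08, adjusted p = 3.04e-07) and to 117 ± 12.4 CPM after MnDps (0.85 ± 0.08, adjusted p = 1.17e-06). In the list of 12 kinases, STATs, phosphatases and PIAS proteins, 3 rose and none fell after Dps at 4 h (median 0.22), beside 14.6% of all genes called. After MnDps 2 rose and 1 fell (median 0.02), a smaller share than the 45.6% of all genes called. The others that rose were Jak3 (0.62 ± 0.11 and 0.43 ± 0.11) and, after Dps, Tyk2 (0.38 ± 0.10). Pias1 fell after MnDps (−0.39 ± 0.09) but not with the offset (−0.06 ± 0.08), and the same holds for Jak1 after Dps at 24 h (−0.26 ± 0.08, and −0.09 ± 0.06 with the offset).

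Of 16 textbook STAT3 targets, 10 rose and none fell after Dps at 4 h (median 0.97), beside 8.33% of all genes higher and an all-gene median of −0.02. After MnDps 14 rose and none fell (median 1.46), beside 22.9% of all genes higher and a median of 0.00. Bcl3, a cofactor of NF-kB, rose by 1.57 ± 0.19 and 1.79 ± 0.20, the kinase gene Pim1 by 0.99 ± 0.15 and 0.54 ± 0.15, and the fibrinogen chain Fga by 1.36 ± 0.26 and 1.83 ± 0.27. The acute-phase genes Hp (haptoglobin) and Serpina3n rose by 4.91 ± 0.69 and 5.33 ± 0.60 after Dps and by 5.06 ± 0.69 and 4.88 ± 0.61 after MnDps. Serpina3n, at 0.0807 to 0.439 CPM in vehicle, passed the count filter through treated libraries and could hardly be called lower. Its calls at 4 h and 24 h, and the counts that hold it, are therefore partly set by the filter. Hp ran from 0.384 to 3.78 CPM within vehicle. Icam1, an adhesion molecule (1.96 ± 0.16 and 2.04 ± 0.16), Timp1, a protease inhibitor (4.00 ± 0.32 and 4.88 ± 0.32), the fibrinogen chain Fgg (1.51 ± 0.32 and 2.31 ± 0.32), Lrg1 (0.94 ± 0.19 and 1.22 ± 0.19) and Il4ra (0.63 ± 0.10 and 0.84 ± 0.10) rose after both. Cebpb (0.86 ± 0.23), Cebpd (1.07 ± 0.31), Fgb (1.70 ± 0.52) and Mcl1 (0.43 ± 0.10) rose after MnDps, Cebpb not with the offset (0.42 ± 0.22). By 24 h after Dps 3 of the 16 were higher, namely Hp (2.97 ± 0.73), Serpina3n (2.76 ± 0.72) and Lrg1 (0.63 ± 0.20), and 1, Pim1, was lower (−0.52 ± 0.16). After MnDps at 24 h 1 was higher, Serpina3n (3.55 ± 0.72). Lrg1 at 24 h after Dps did not pass with the offset (0.28 ± 0.19). Several of these genes, Icam1 among them, are also known targets of other pathways.

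Among the 4 related genes Socs4 to Socs7, 1 was called after Dps at 4 h and 2 after MnDps at 4 h, beside 14.6% and 45.6% of all genes. Socs5 rose after Dps at 4 h (0.33 ± 0.10, adjusted p = 0.0343), while Socs4 (−1.21 ± 0.21) and Socs6 (−0.36 ± 0.10) fell after MnDps at 4 h, and Socs4 also after Dps at 24 h (−0.95 ± 0.21, and −0.63 ± 0.18 with the offset). At 4 h with the offset Socs4 stayed lower (−0.65 ± 0.18) and Socs6 was not called (0.08 ± 0.09). Against Dps at 4 h, Socs4 (−1.28 ± 0.21), Socs6 (−0.39 ± 0.10) and Socs7 (−0.37 ± 0.11) were lower after MnDps, beside 20.7% of all genes lower, and of these Socs4 passed with the offset (−0.75 ± 0.18). Among 6 further receptors, Csf3r, the receptor of a neutrophil growth factor, rose after both materials at 4 h (1.81 ± 0.34 and 1.89 ± 0.34), and Il11ra1 fell after Dps at 4 h (−0.36 ± 0.10) and rose at 24 h (0.54 ± 0.10). In the axis of growth hormone, prolactin and erythropoietin, which drives STAT5, 1 of 6 genes rose and 1 fell after Dps at 4 h, beside 14.6% of all genes called, and 1 rose and 2 fell after MnDps, close to the 45.6% of all genes called. Igfals, which encodes a carrier of insulin-like growth factors, rose after both (0.72 ± 0.12 and 0.93 ± 0.12), and Igf1 fell after both (−0.46 ± 0.15 and −0.87 ± 0.15) but in neither with the offset (−0.41 ± 0.14 and −0.27 ± 0.15). Ghr, the growth hormone receptor, fell after MnDps at 4 h (−0.30 ± 0.09) and at 24 h (−0.46 ± 0.10), but passed in neither with the offset (−0.11 ± 0.07 and −0.22 ± 0.08). With a term for the libraries above 30000000 counts, the calls of Ctf1 (−0.53) and Socs5 (0.31) after Dps at 4 h, of Clcf1 after MnDps at 4 h (0.35) and of Jak1 (−0.23), Lrg1 (0.70) and Hp (2.96) after Dps at 24 h were lost.

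**Figure D4:**
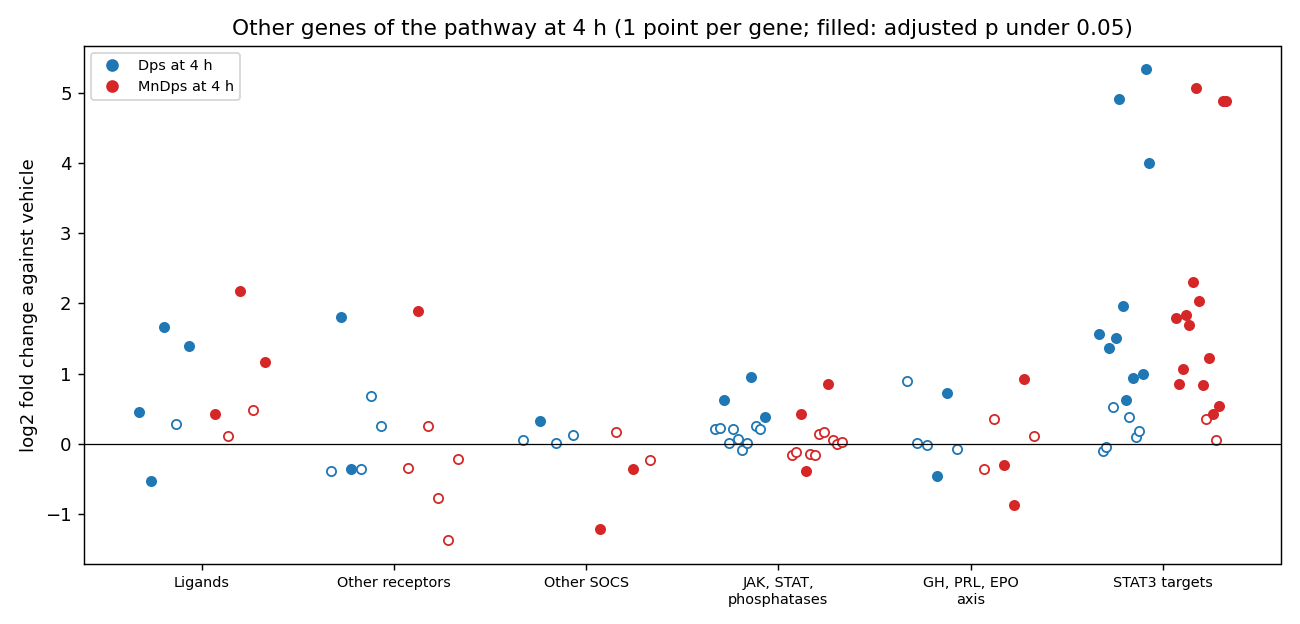
Log2 fold change against vehicle (vertical axis) of the tested genes of 6 pathway lists at 4 h after Dps (blue) and MnDps (red), 1 point per gene, filled where the adjusted p was under 0.05. Il6 and Il27 are left out because vehicle held 0 or 1 read of them. The STAT3 targets lie mostly above 0 after both materials, while the related SOCS genes reach down to −1.21.

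Markers of the nephron and of other cell types moved at 4 h and 24 h as well, and their part in the values above was not tested. The proximal tubule genes summed to 18400 to 19400 CPM in vehicle, 16200 to 17400 after Dps and 14500 to 15700 after MnDps at 4 h. Of these 8, 3 and 6 were lower, beside 6.27% and 22.7% of all genes. The 4 thick ascending limb genes summed to 5020 to 6340 CPM in vehicle and 2950 to 3560 after MnDps at 24 h. Of these 4, 3 were lower then, beside 8.39% of all genes. Of the 4 podocyte genes, 3 were lower after MnDps at 4 h, beside 22.7% of all genes, and none was called after Dps at 4 h. At 24 h 2 of them were lower after each material, beside 10.4% and 8.39% of all genes. The 7 neutrophil genes in the table summed to 0.917 to 1.92 CPM in vehicle, 5.26 to 7.78 after Dps at 4 h and 11.1 to 19.2 after MnDps at 4 h, and to between 1.96 and 3.06 at 24 h. Of the 4 that were tested, 3 rose at 4 h after each material, beside 8.33% and 22.9% of all genes. Csf3r is one of the 7, and S100a8, S100a9, Cxcr2, Retnlg and Il1r2 each had 0 reads in at least 1 library. Any of these that was tested passed the count filter through the libraries where it was higher. The 8 macrophage genes summed to 138 to 185 CPM in vehicle, 122 to 137 at 4 h and 215 to 244 at 24 h. At 4 h 3 of the 8 were lower after Dps and 4 after MnDps, beside 6.27% and 22.7% of all genes. At 24 h 5 were higher after each material, beside 9.64% and 4.93% of all genes. The 8 T and NK cell genes summed to 5.36 to 9.94 CPM in vehicle and 4.04 to 6.22 at 4 h, and none of the 7 tested was higher then. The 8 endothelial genes summed to 398 to 449 CPM in vehicle and 258 to 358 at 4 h, with 5 of 8 lower and 1 higher after each material, beside 14.6% and 45.6% of all genes called. The 6 adipocyte genes summed to 44.6 to 82.5 CPM in vehicle, 129 to 171 after Dps and 103 to 168 after MnDps at 4 h, and 57 to 170 at 24 h. Of these 6, 3 rose after Dps and 2 after MnDps at 4 h (medians 2.36 and 1.64), beside 8.33% and 22.9% of all genes. Lep and Plin1 had 0 reads in at least 1 library, and the lowest library of Adipoq held 1 read. Such genes passed the count filter through the libraries where they were higher, so these counts and medians may be partly set by it.

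The genes most like each member were found by Pearson's r of log2 CPM over the 14 libraries, which share groups and depth. Socs1 was closest to Mndal (r = 0.99), AI607873 (0.98) and Csf1 (0.98), and Socs3 to Mov10 (0.98), Rnf31 (0.98) and Icam1 (0.97). Osmr was closest to Pnpt1 (0.97), Ext1 (0.96) and Lgals8 (0.96), and Socs2 to Pfkp (0.97), Dtx4 (0.96) and Shmt1 (0.91). Il6st ran with Atg2b, Prrg4 and Lama3 (0.96 each), Il6ra with Atf7ip (0.94), Kdm2a (0.92) and 2610005L07Rik (0.91), and Lifr with Zfp760, Golph3l and Zfp266 (0.94 each). Cish had the loosest partners, Vps18 (0.92), Hoxa7 (0.86) and Rhebl1 (0.83). Among the members themselves, Socs1, Socs3 and Osmr tracked one another most closely (0.89 to 0.92), and Il6st followed Il6ra (0.86) and Lifr (0.76). Il6st, Il6ra and Lifr have the longest transcripts of the members, and r was taken without the offset for length and GC. The part of the length trend in these correlations, and in those with their closest genes, was not tested. The correlations of Cish with the other members ran from 0.04 with Lifr to 0.58 with Socs2.

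In GENCODE M21 (GRCm38, the assembly that mm10 names) the inhibitor genes lie at chr16:10782240-10785536 (Socs1), chr11:117966079-117970047 (Socs3), chr10:95385362-95417180 (Socs2) and chr9:107296026-107302784 (Cish). The receptor genes lie at chr13:112464070-112510086 (Il6st), chr3:89864059-89913196 (Il6ra), chr15:6813577-6874969 (Osmr) and chr15:7090614-7197489 (Lifr).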

How the data were processed

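Kidney RNA was sequenced as paired-end reads from stranded Illumina TruSeq mRNA libraries, per the labels' protocols. STAR, featureCounts and the mm10 build are named in the submitters' processing notes; versions, annotation and the settings for strand and multi-mapping were not given in the sources used here. Values deposited by the authors are raw counts, 1 row per gene symbol. Groups follow the titles of the 14 libraries; replicates are numbered in series order. edgeR (4.0.16, R 4.3.3) kept 14854 of 24421 genes (filterByExpr by group) and removed 9567, scaled by TMM, and tested 9 contrasts in one robust quasi-likelihood fit of 5 group means over all libraries (9 residual degrees of freedom, biological coefficient of variation 10.7%). SE is the log2 fold change divided by the square root of F. Levels are CPM of the scaled libraries. For the length and GC offset, log2 CPM of each library (prior count 2) was fitted by splines on length and GC of the longest GENCODE transcript; 14328 of the tested genes (96.5%) had both. Other alternatives were median-of-ratios factors, no count filter, a minimum count of 50, DESeq2 (1.42.0), fitting only the groups compared, a term for libraries above 30000000 counts, and leaving out each library. The test was checked on simulated counts. Members and lists were chosen with earlier results of these data known, and 2 listed genes are not reported here. Named are all members, all tested ligands, other list genes that passed, and for each member the 3 genes of highest r. Promoter sequences are from RefSeq (GRCm38.p6).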

Additional observations from a re-analysis of the deposited data

Results flagged for a closer look

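Levels differed between the 2 time points for 7 of 8 members after Dps and 4 of 8 after MnDps (44.6% and 21.8% of all genes), by the direct test of 24 h against 4 h within each material, in which the shared vehicle group drops out. After Dps the changes were −2.23 for Socs1, −2.42 for Socs3, −1.27 for Socs2, −1.07 for Il6st, −1.34 for Il6ra, −1.49 for Osmr and −0.24 for Lifr (log2), the last of which became 0.13, not called, with the offset for length and GC. After MnDps they were −3.07 for Socs1, −1.92 for Socs3, −1.57 for Socs2 and −1.21 for Osmr. The difference between MnDps and Dps also changed with time for Il6st (1.07) and Il6ra (1.5), both long transcripts, and with the offset for length and GC only Il6st of these passed. No group had the 4 libraries needed to look for a single outlying one.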

How the results depend on the processing

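Of 951 refitted member values, 866 kept direction and side of the threshold, 28 lost a call, 19 gained one and 38 changed sign; DESeq2 gave no adjusted p for Socs1 between the materials at 24 h. No paired analysis was possible because the labels give no replicate numbers. The cause of a change was not tested unless the setting itself removes libraries. The count of members called for Dps at 24 h against vehicle was 3, 5 with DESeq2 and 0 with the length and GC offset. For MnDps at 24 h against vehicle it was 0, and 1 when only those groups were fitted. Between the materials at 24 h it was 0, and 1 with DESeq2 or only those groups. Leaving out 1 library gave 4 members throughout for Dps at 4 h, 4 to 6 for MnDps at 4 h, 1 to 3 for Dps at 24 h and 0 throughout for MnDps at 24 h against vehicle. It gave 3 to 4 and 0 between the materials at 4 h and 24 h, 6 to 7 and 4 over time after Dps and MnDps, and 1 to 2 for the change of the difference over time. Where this left 1 library of MnDps at 24 h, that library was assumed to vary like the other groups.

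Signs turned with the length and GC offset. At 4 h MnDps against vehicle became 0.10 for Cish, 0.25 for Il6st and 0.31 for Lifr, and against Dps 0.16 for Osmr and 0.25 for Lifr. At 24 h against vehicle Lifr became 0.18 after Dps and 0.071 after MnDps, and Socs1 −0.11 after MnDps. Over time Lifr became 0.13 after Dps and Il6ra −0.14 after MnDps. The change of the difference over time became −0.058 for Osmr and −0.36 for Lifr, which was called.

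Other sign changes were of values not called in either fit. Socs3 for MnDps at 24 h against vehicle was 0.001 with median-of-ratios factors, 0.006 with the stricter count filter and 0.029 with the depth term. Over time after MnDps, Il6st was 0.002 with the stricter filter and 0.007 with only those groups, and Lifr 0.005 with only those groups. Without 1 library, Cish for MnDps at 4 h against vehicle ran from −0.38 to 0.29, and for MnDps at 24 h against vehicle Socs1 ran from −0.032 to 0.20 and Socs3 from −0.48 to 0.29. Between the materials at 4 h Socs3 ran from −0.45 to 0.10 and Osmr from −0.36 to 0.041, and at 24 h Socs3 from −0.084 to 0.68, Cish from −0.53 to 0.81 and Lifr from −0.091 to 0.06. Over time after MnDps, Il6st ran from −0.054 to 0.055, Il6ra from −0.18 to 0.37 and Lifr from −0.091 to 0.063. Depth limits Socs1, with 8 to 21 reads in vehicle libraries, and Il6ra.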
